A study of Mus musculus with 6 samples.

Results

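The 49 genes described here encode the proteins that copy nuclear DNA and that make its building blocks. They were taken by gene name from 17060 genes listed in any culture. No threshold on a measured value entered the choice, but the list was drawn up with earlier results of these data known. All 49 were listed in every culture and kept for testing among 12306 genes. The cultures were started from lineage-negative BM cells of WT mice, which are rich in stem and progenitor cells, in a medium with erythropoietin (EPO) that drives them to proliferate and mature into erythroblasts. For 48 hours, 3 cultures received NUP-17d, a small molecule made to bind Plek2 (a pleckstrin paralog that acts on the actin cytoskeleton and on Akt), and 3 received its solvent DMSO. The labels name no engineered allele, and EPO was present in both groups. The labels give neither the concentration nor the mice behind each culture, so the p-values measure the spread between these cultures, which may be technical. The comparison asks which transcripts differed in relative abundance after the Plek2 inhibitor.

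DNA replication starts at origins. The origin recognition complex (Orc1 to Orc6) binds them in G1, and Cdc6 and Cdt1 load the ring-shaped Mcm2 to Mcm7 helicase there, a step called licensing. In S phase the Cdc7-Dbf4 kinase and Mcm10 help Cdc45 and the GINS proteins turn the rings into active helicases, and the polymerases then copy each strand with the sliding clamp Pcna. Ribonucleotide reductase (Rrm1 and Rrm2) and the nucleoside kinases supply the deoxynucleotides. Erythroid progenitors divide rapidly while they mature, and many of these genes are transcribed under the control of E2F factors around the G1/S border.

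The total of expected counts, the authors' estimate of the reads per gene, was 20278433 to 20419018 in the DMSO cultures and 20076409 to 20170197 in the NUP-17d cultures. Hemoglobin genes took 18.3% to 20.3% of it in the DMSO cultures and 11.8% to 13.1% in the NUP-17d cultures. The main scaling was edgeR's trimmed mean of M values (TMM), which holds the bulk of genes level, and the values below are normalised counts (CPM, each count scaled to a fixed library size) on that scale unless said otherwise. Scaling by library totals only moved the median log2 fold change of all tested genes from 0.014 to 0.281. Each direction below is therefore relative to the bulk of genes, and neither scaling measures RNA per cell.

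Under TMM, 33 of the 49 genes (67.3%) fell with NUP-17d and none rose, whereas with library totals only 3 fell and 21 rose. Each gene was tested by the quasi-likelihood fit of edgeR, and each adjusted p below is from that fit, adjusted by Benjamini-Hochberg over all 12306 genes and read at 0.05. DESeq2 called 27 of the 49 lower and 0 higher, beside 1809 lower and 1161 higher of all genes that it tested. It started from all listed genes rather than from the 12306, so these counts are given without a share. Among all tested genes TMM called 18.9% lower and 16.4% higher, and library totals called 5.34% lower and 68.7% higher. The median log2 fold change of the 49 was -0.16 beside 0.014 for all tested genes, and 0.11 beside 0.281 with totals only. Under TMM 46 of the 49 lay below the median of all tested genes. The count with totals only was also 46, but it is no separate result. A change of scaling shifts every gene by nearly the same amount, so positions beside the median could hardly change. In these bulk samples, fewer cells of a type and less RNA per cell cannot be told apart, and erythroid markers, given at the end, fell with the same groups. The NUP-17d and DMSO values did not overlap in 38 genes, lower with NUP-17d in each, beside 23.2% of all tested genes that separated in this direction and 22.8% in the other, where none of the 49 lay. The sizes were small. Against a minimum change of 1.2-fold, 3 of the 49 passed (Rrm2, Dck and Orc1), beside 5.37% of all tested genes lower and 2.23% higher.

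**Figure D1:**
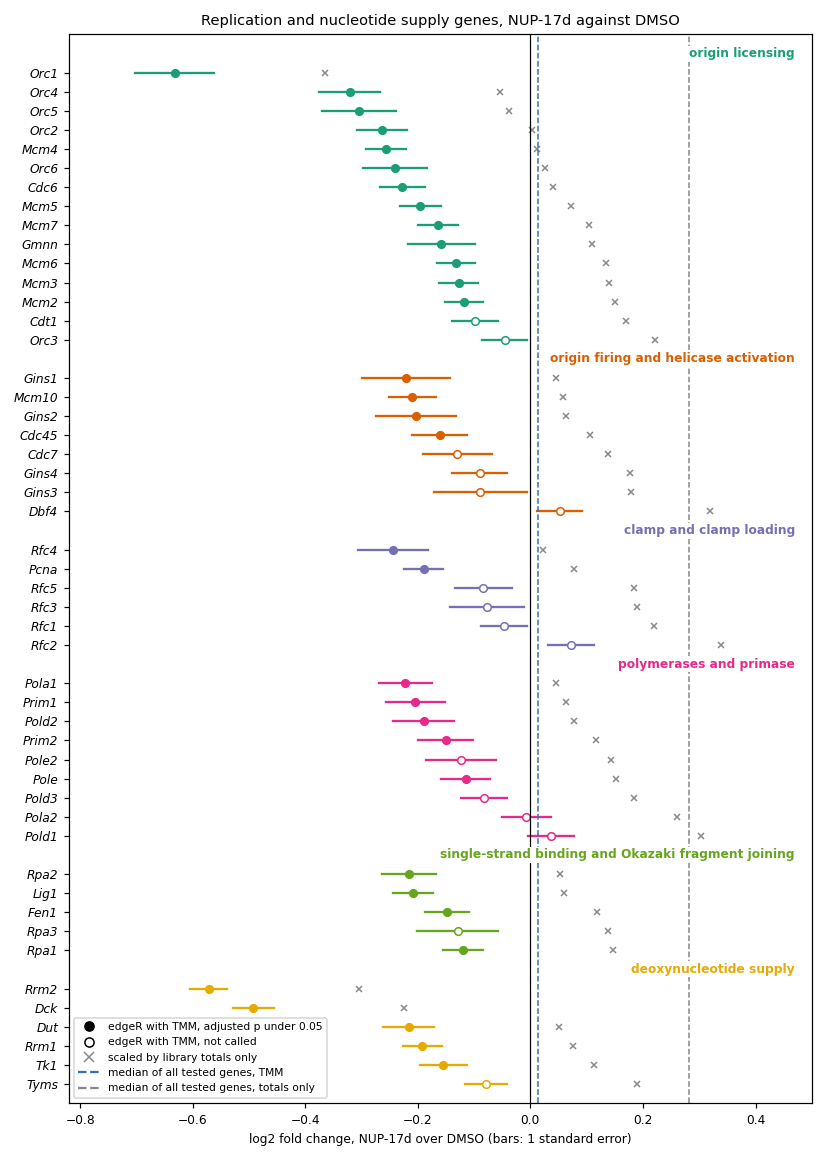
Log2 fold change of NUP-17d over DMSO for each of the 49 genes, in rows grouped by role, with bars of 1 standard error (edgeR, TMM, filled where the adjusted p is under 0.05) and crosses for the value with library totals only. Dashed lines mark the median of all tested genes, 0.014 with TMM and 0.281 with totals only. Under TMM 46 of the 49 genes lie to the left of their line. The crosses repeat this, because the scaling shifts all genes nearly equally, although most crosses lie above 0.

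The sequences before the transcription starts are shown for the 3 genes with the largest falls, Rrm2, Dck and Orc1, and for 2 helicase subunits, Mcm5 and Mcm6, whose starts carry several E2F-type matches. Each is the 250 bases before a RefSeq start, 5′ to 3′ on the strand of the gene, in build GRCm38.p6, which is the build mm10 that the submitters name. Capitals mark the E2F-type letters TTTCCCGC, TTTCGCGC, TTTGCCGC or TTTGGCGC on either strand, and neighbouring matches may overlap. The RefSeq starts of Orc1 and Mcm5 lie within the annotated spans of these genes, so that the whole stretch printed for Orc1 and the end of that for Mcm5 are inside the gene. Rrm2 and Dck hold none of the letters here, Orc1 holds 1, Mcm5 holds 2 that overlap, and Mcm6 holds 3, of which 2 overlap. The stretches lie at chr12:24708004-24708253 (+ strand), chr5:88764763-88765012 (+ strand), chr4:108579204-108579453 (+ strand), chr8:75109259-75109508 (+ strand) and chr1:128359706-128359955 (- strand).
Rrm2: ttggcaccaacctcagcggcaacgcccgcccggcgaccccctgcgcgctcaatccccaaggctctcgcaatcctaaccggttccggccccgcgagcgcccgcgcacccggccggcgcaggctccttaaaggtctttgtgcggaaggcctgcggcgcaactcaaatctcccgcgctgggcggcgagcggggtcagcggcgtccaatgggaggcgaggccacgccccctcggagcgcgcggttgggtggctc
Dck: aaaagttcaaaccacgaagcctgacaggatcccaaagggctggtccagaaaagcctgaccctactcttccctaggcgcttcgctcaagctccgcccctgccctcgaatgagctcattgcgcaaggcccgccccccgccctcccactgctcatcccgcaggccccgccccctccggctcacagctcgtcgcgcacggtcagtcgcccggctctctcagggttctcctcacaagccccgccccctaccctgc
Orc1: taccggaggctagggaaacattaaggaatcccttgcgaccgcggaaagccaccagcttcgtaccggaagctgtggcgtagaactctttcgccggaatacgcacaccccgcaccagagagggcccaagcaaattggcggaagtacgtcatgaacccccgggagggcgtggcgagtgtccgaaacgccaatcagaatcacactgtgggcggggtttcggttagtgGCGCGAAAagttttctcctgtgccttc
Mcm5: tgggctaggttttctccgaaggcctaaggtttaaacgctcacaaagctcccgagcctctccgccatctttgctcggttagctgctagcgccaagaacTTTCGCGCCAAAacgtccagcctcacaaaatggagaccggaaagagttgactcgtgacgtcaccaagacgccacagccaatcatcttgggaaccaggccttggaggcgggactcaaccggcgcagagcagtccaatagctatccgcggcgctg
Mcm6: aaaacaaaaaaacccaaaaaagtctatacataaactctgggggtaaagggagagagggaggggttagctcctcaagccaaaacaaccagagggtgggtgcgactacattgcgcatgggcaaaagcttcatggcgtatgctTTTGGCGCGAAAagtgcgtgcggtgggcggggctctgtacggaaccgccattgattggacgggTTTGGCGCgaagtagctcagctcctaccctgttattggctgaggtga

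A RefSeq start was matched for 41 of the 49 genes, not for Mcm4, Gmnn, Gins1, Gins2, Gins4, Rfc2, Prim2 and Pole, and the window searched ran from 250 bases before to 50 bases after it. An E2F-type match was found in 15 of these 41 genes (36.6%), beside 4.69% of tested genes with a start and 2.6% of all genes with a start. Among genes that fell under TMM (library totals only called 3 of the 49 lower), 8 of 27 (29.6%) held one, and among those not called 7 of 14 (50%) did. The letters CCAAT, on either strand, were found in 19 of the 27 genes that fell (70.4%), in 4 of the 14 not called (28.6%) and in 43.3% of tested genes. More starts were searched for the 27 genes (35) than for the 14 (15). Counted per start, the shares were 60%, 26.7% and 37.9% in the same order. The letters TTTGAA, which are part of the cell cycle homology region of G2/M genes, were found in 8 of the 41 (19.5%), beside 14.6% of tested genes and 12 of 17 mitosis genes (70.6%). None of these motifs contains another. These are matches of letters, with no test, and binding was not measured.

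Deoxynucleotide supply held 2 of the 3 largest falls. Rrm2, the small subunit of ribonucleotide reductase that carries the tyrosyl radical and is made mainly in S phase, lies on chromosome 12 (24708254 to 24714146, GRCm38.p6). It was at 399.6, 388 and 400.4 CPM in the DMSO cultures and 270.2, 264 and 265 CPM in the NUP-17d cultures. The groups lay far apart beside their spread, with means of 396 ± 6.97 and 266 ± 3.35 CPM (SD, n = 3). The log2 fold change was -0.57 (SE 0.034, adjusted p = 2.2e-13), a fall of 32.7%, and it was -0.30 with library totals only. Rrm1, the large subunit with the catalytic and allosteric sites, was at 363, 344 and 354 CPM in the DMSO cultures and 314, 299.7 and 316 CPM in the NUP-17d cultures. These did not overlap either, but the log2 fold change was smaller, -0.19 (SE 0.035, adjusted p = 9.2e-05), and with totals only it was 0.08, with a call of higher.

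The ratio of Rrm2 to Rrm1 within a culture, which no scaling of libraries can change, was 2.02, 2.06 and 2.07 in the DMSO cultures and 1.58, 1.61 and 1.54 in the NUP-17d cultures (FPKM, which is per transcript length). Every NUP-17d culture lay below every DMSO culture, with means of 2.05 ± 0.029 and 1.58 ± 0.038 (SD, n = 3). The ratios here and below are descriptions with no test, since an exact permutation test of 3 against 3 cannot go below p = 0.1.

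Dck, deoxycytidine kinase of the salvage pathway, lies on chromosome 5 (88765013 to 88783277). It was at 155, 152 and 152 CPM in the DMSO cultures and 106, 112 and 109 CPM in the NUP-17d cultures, with no overlap. Its log2 fold change was -0.49 (SE 0.036, adjusted p = 1.7e-11), a fall of 28.9%, and -0.22 with totals only. Dut, which breaks down dUTP so that uracil stays out of DNA, was at 59.6, 62.7 and 57.2 CPM in the DMSO cultures and 49.9, 51.02 and 53.6 CPM in the NUP-17d cultures. The groups did not overlap, and the log2 fold change was -0.22 (SE 0.045, adjusted p = 0.00043) with TMM and 0.05 with totals only.

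Genes of thymidine metabolism had smaller log2 fold changes. Tk1, the cytosolic thymidine kinase, fell by 0.15 on the log2 scale with TMM (adjusted p = 0.00488) and was called higher with totals only. Tyms, thymidylate synthase, was not called (-0.08, adjusted p = 0.101), although its cultures did not overlap. In all, 5 of 6 supply genes were lower under TMM, beside 18.9% of all tested genes. With totals only 2 were lower (Rrm2 and Dck) and 3 higher, beside 5.34% and 68.7% of all tested genes. The summed level of the supply genes was 1122 to 1158 CPM in the DMSO cultures and 890.4 to 910.2 CPM in the NUP-17d cultures.

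**Figure D2:**
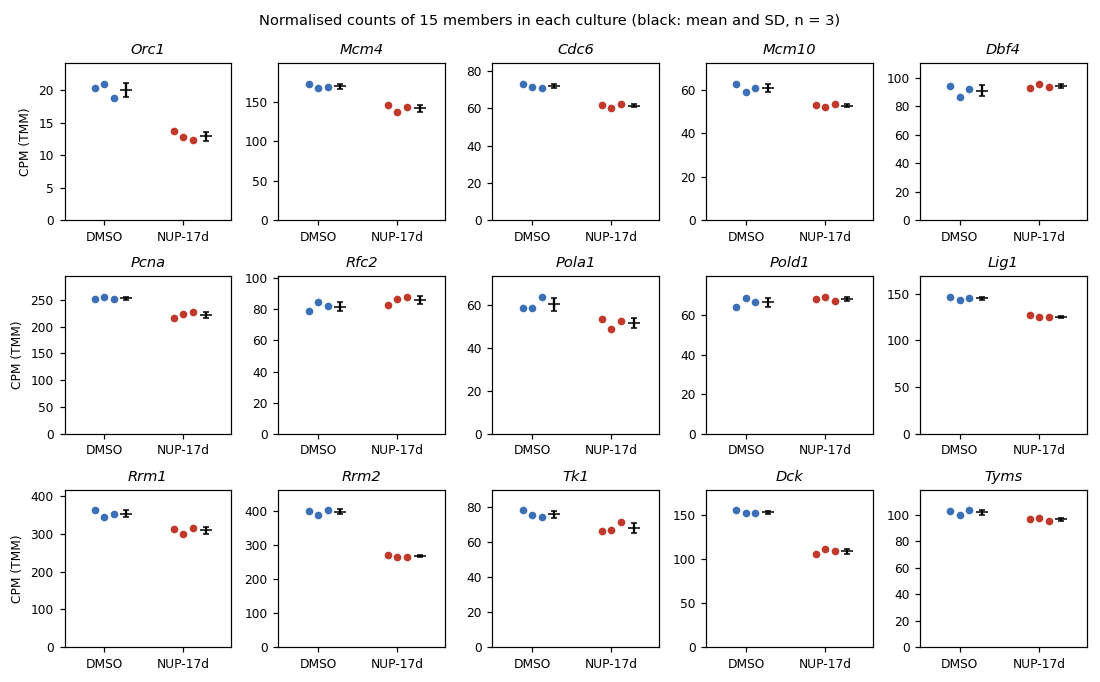
Normalised counts (CPM after TMM scaling, axes from 0) of 15 of the genes in the 3 DMSO (blue) and 3 NUP-17d (red) cultures, with the mean and SD in black. Orc1, Rrm2 and Dck stand apart most, Dbf4, Rfc2 and Pold1 overlap, and for most of the others the gap is small beside the level and turns its direction with library totals only.

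In origin licensing, the largest role group, 13 of 15 genes (86.7%) fell under TMM, beside 18.9% of all tested genes. That share was 83.3% for deoxynucleotide supply and 80% for single-strand binding and Okazaki fragment genes. With totals only 1 licensing gene was lower (Orc1) and 6 were higher, beside 5.34% and 68.7% of all tested genes. All 15 licensing genes lay below the median of all tested genes, a position that the scaling hardly changes. In all 15 the cultures did not overlap under TMM, beside 23.2% of all tested genes that separated in this direction. Their median log2 fold change was -0.20, or 0.072 with totals only.

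Orc1, the largest subunit of the origin recognition complex and an ATPase that is degraded and remade in each cycle, changed most of all 49. It lies on chromosome 4 (108575705 to 108616030). It was at 20.2, 20.98 and 18.8 CPM in the DMSO cultures and 13.7, 12.7 and 12.3 CPM in the NUP-17d cultures. The highest NUP-17d culture lay well below the lowest DMSO culture, and the means were 20 ± 1.11 and 12.9 ± 0.679 CPM (SD, n = 3). The log2 fold change was -0.63 (SE 0.070, adjusted p = 4.6e-08), a fall of 35.5%, and -0.36 with totals only. Its level per length was the second lowest of the 49, at 6.52 ± 0.358 FPKM in the DMSO cultures.

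Other subunits of the complex fell less or were not called. Orc4 was at 33.7, 36.9 and 32.7 CPM in the DMSO cultures and 27.4, 28.3 and 26.9 CPM in the NUP-17d cultures. Orc2 was at 54.5, 57.3 and 55.4 CPM in the DMSO cultures and 47.9, 44.4 and 47.03 CPM in the NUP-17d cultures. Neither overlapped, and the log2 fold changes were -0.32 (SE 0.055, adjusted p = 3.7e-05) for Orc4 and -0.26 (SE 0.044, adjusted p = 3.3e-05) for Orc2. On the opposite strand, Orc2 shares 24% of its exon bases with Nif3l1, Orc4 9.48% with Acvr2a and Orc6 7.14% with Vps35. Orc1 shares 11.9% there with Gm12743, which is not among the listed genes. Further members, Mcm7 among them (10.8% with Ap4m1), have overlaps that are not all given here. Orc5 (-0.30) and Orc6 (-0.24) also fell, and Orc3 was not called (-0.05, adjusted p = 0.406). With totals only, Orc2 to Orc6 lay between -0.05 (Orc4) and 0.22 (Orc3, called higher). Thus 5 of 6 subunits fell under TMM and 1, Orc1, under both scalings.

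All of Mcm2 to Mcm7, the subunits of the helicase ring, fell under TMM, whereas with totals only none was lower and Mcm2, Mcm3, Mcm6 and Mcm7 were called higher. Mcm4 changed most. It was at 173, 167 and 168 CPM in the DMSO cultures and 145, 137 and 144 CPM in the NUP-17d cultures, with no overlap, and its log2 fold change was -0.26 (SE 0.036, adjusted p = 2.4e-06), or 0.01 with totals only. The other subunits ranged from -0.20 (Mcm5) to -0.12 (Mcm2) under TMM, and from 0.07 to 0.15 with totals only. Of the summed FPKM of the 6 subunits, Mcm4 made up 10.7, 10.6 and 10.7% in the DMSO cultures and 10.01, 9.86 and 9.998% in the NUP-17d cultures. That share was lower in every NUP-17d culture, while the shares of Mcm2 (15.7% and 16.2% as means) and Mcm6 (21.2% and 21.6%) were higher in every NUP-17d culture, for Mcm6 by a narrow margin, and those of Mcm3, Mcm5 and Mcm7 overlapped. The 6 shares add to a constant, so they do not move independently.

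Of the loading factors, Cdc6, the ATPase that brings the helicase to the complex, had a log2 fold change of -0.23 (SE 0.040, adjusted p = 5.4e-05) under TMM and of 0.04 with totals only. Cdt1, its partner, was not called (-0.10, adjusted p = 0.0618). Gmnn, geminin, which binds Cdt1 and blocks a second round of loading, was lower at -0.16 (adjusted p = 0.0396), and this call was lost in 4 of the 6 fits that left out 1 culture, where the log2 fold change ran from -0.22 to -0.11. The ratio of Cdc6 to Orc1 was 2.41, 2.26 and 2.51 in the DMSO cultures and 3.002, 3.15 and 3.36 in the NUP-17d cultures, higher in every NUP-17d culture. That of Gmnn to Cdt1 overlapped, with means of 0.854 ± 0.026 and 0.819 ± 0.049 (SD, n = 3).

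**Figure D3:**
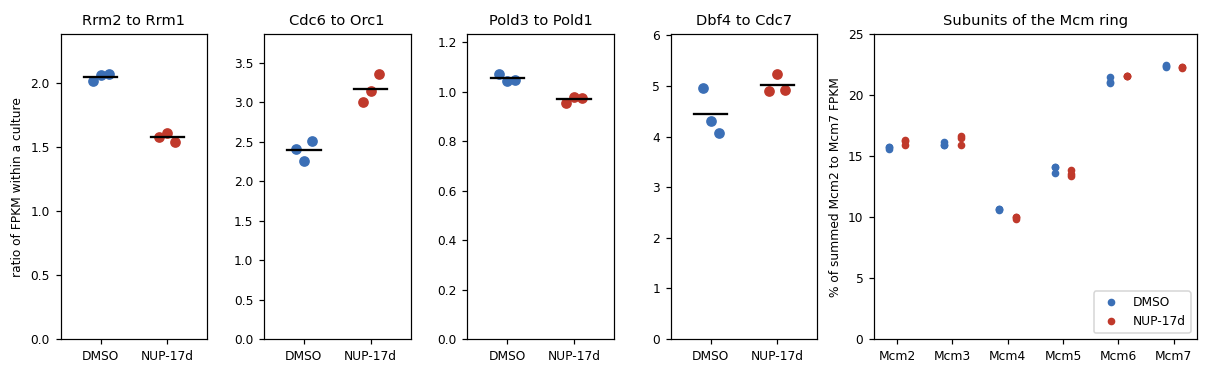
Ratios of FPKM between members within each culture (axes from 0, lines at the mean) and the share of each subunit in the summed FPKM of Mcm2 to Mcm7, for 3 DMSO (blue) and 3 NUP-17d (red) cultures. No scaling of libraries changes these values. Rrm2 to Rrm1, Pold3 to Pold1 and the Mcm4 share are lower in every NUP-17d culture, Cdc6 to Orc1 is higher in every one, and Dbf4 to Cdc7 overlaps.

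Origin firing and helicase activation held 4 genes of 8 that fell under TMM, beside 18.9% of all tested genes. With totals only none fell and 2 rose, beside 68.7% of all tested genes that rose. Mcm10, which helps the loaded helicase start to unwind, was at 62.95, 59.1 and 61.1 CPM in the DMSO cultures and 52.99, 51.97 and 53.4 CPM in the NUP-17d cultures. Cdc45, a part of the active helicase, was at 50.8, 48.8 and 51.6 CPM in the DMSO cultures and 44.4, 42.5 and 48.3 CPM in the NUP-17d cultures. Neither overlapped. The log2 fold changes were -0.21 (SE 0.042, adjusted p = 0.00028) for Mcm10 and -0.16 (SE 0.049, adjusted p = 0.0115) for Cdc45, and with totals only they were 0.06 and 0.11. Cdc45 lost the call in 2 of the 6 fits that left out 1 culture (-0.22 to -0.12).

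Of the GINS proteins, the other part of the active helicase, Gins1 was at 14.4, 15.1 and 16.1 CPM in the DMSO cultures and 12.3, 12.3 and 14.4 CPM in the NUP-17d cultures. Gins2 was at 16.2, 16.4 and 16.1 CPM in the DMSO cultures and 13.3, 13.7 and 15.3 CPM in the NUP-17d cultures. Gins1 overlapped between the groups and Gins2 did not, and both passed the test with the same adjusted p of 0.0286 at log2 fold changes of -0.22 and -0.20. Gins1 lost the call in 4 of the 6 fits that left out 1 culture (-0.30 to -0.18) and Gins2 in 5 (-0.27 to -0.16). Gins2 shares 70.7% of its annotated exon bases with Gse1 on the opposite strand. Whether the counting used strand is not given, so the level of Gins2 is uncertain. Gins3 (-0.09) and Gins4 (-0.09) were not called, and Gins3 had the lowest level per length of the 49, at 4.97 ± 0.38 FPKM in the DMSO cultures.

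Neither subunit of the kinase that fires origins was called. The activator Dbf4 was at 94.6, 86.5 and 91.8 CPM in the DMSO cultures and 93.1, 95.9 and 93.8 CPM in the NUP-17d cultures, which overlapped, and its log2 fold change was 0.05 (SE 0.040, adjusted p = 0.33), one of 3 above 0 among the 49. The catalytic subunit Cdc7 was not called (-0.13, adjusted p = 0.107). With totals only Dbf4 was called higher at 0.32, above the median of 0.281 of all tested genes. The ratio of Dbf4 to Cdc7 overlapped, at 4.45 ± 0.462 in the DMSO and 5.02 ± 0.182 in the NUP-17d cultures (SD, n = 3).

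Of the clamp and its loader, 2 genes of 6 fell under TMM, beside 18.9% of all tested genes. With totals only none fell and 4 rose, beside 68.7% of all tested genes that rose. Pcna, the ring that ties the polymerases to DNA, had the highest level per length of the 49, at 201 ± 1.89 FPKM in the DMSO cultures. It was at 251, 255 and 251 CPM in the DMSO cultures and 215, 223 and 227 CPM in the NUP-17d cultures, with no overlap, and its log2 fold change was -0.19 (SE 0.034, adjusted p = 7.9e-05), or 0.08 with totals only. Rfc4, a small subunit of the clamp loader, was at 24.98, 23.8 and 24.6 CPM in the DMSO cultures and 20.03, 19.5 and 22.5 CPM in the NUP-17d cultures. It did not overlap either, at -0.24 (SE 0.063, adjusted p = 0.00314).

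The rest of the loader was not called. Rfc2 was at 78.6, 84.5 and 81.9 CPM in the DMSO cultures and 82.9, 86.8 and 87.96 CPM in the NUP-17d cultures. Rfc5 was at 52.1, 46.5 and 47.8 CPM in the DMSO cultures and 47.5, 43.04 and 47.6 CPM in the NUP-17d cultures. Both overlapped, and Rfc2 had the largest change above 0 among the 49, at 0.07 (SE 0.041, adjusted p = 0.174), while Rfc5 was at -0.08 (SE 0.051, adjusted p = 0.212). Rfc1, the large subunit, and Rfc3 were at -0.05 and -0.08. The ratio of Rfc1 to the mean of the 4 small subunits overlapped, at 0.491 ± 0.016 and 0.487 ± 0.012 (SD, n = 3). Rfc2, Rfc4 and Rfc5 share 19.1%, 13.4% and 15.4% of their exon bases with a listed gene on the opposite strand (Lat2, Eif4a2 and Wsb2), and whether the counting used strand is not given in the sources used here.

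Of the polymerases and primase, 5 genes of 9 fell under TMM, beside 18.9% of all tested genes. With totals only none fell and 4 rose, beside 68.7% of all tested genes that rose. Pola1, the catalytic subunit of polymerase alpha, which extends the primers, was at 58.4, 58.2 and 63.5 CPM in the DMSO cultures and 53.5, 48.7 and 52.2 CPM in the NUP-17d cultures. Prim1, the catalytic primase subunit, was at 36.9, 36.7 and 37.98 CPM in the DMSO cultures and 33.9, 29.8 and 33.1 CPM in the NUP-17d cultures. Neither overlapped, and the log2 fold changes were -0.22 (SE 0.047, adjusted p = 0.00046) and -0.20 (SE 0.053, adjusted p = 0.00345). Prim2, the large primase subunit, was at 41.2, 42.5 and 43.2 CPM in the DMSO cultures and 36.4, 37.6 and 40.3 CPM in the NUP-17d cultures. It did not overlap, at -0.15 (SE 0.049, adjusted p = 0.0177), but lost the call in 4 of the 6 fits that left out 1 culture (-0.19 to -0.12). Pola2, the accessory subunit of polymerase alpha, was at -0.01 and was not called.

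Of polymerase delta, which copies mainly the lagging strand, the accessory subunit Pold2 was at 46.3, 42.3 and 41.9 CPM in the DMSO cultures and 39.2, 35.1 and 40.2 CPM in the NUP-17d cultures. Its groups did not overlap, at -0.19 (SE 0.054, adjusted p = 0.00743), and the call was lost in 2 of the 6 fits that left out 1 culture (-0.23 to -0.13). The catalytic subunit Pold1 overlapped and was not called at 0.04 (SE 0.041, adjusted p = 0.515), and with totals only it was called higher at 0.30. Pold3 was not called (-0.08). The ratio of Pold3 to Pold1 was 1.07, 1.04 and 1.05 in the DMSO cultures and 0.954, 0.980 and 0.976 in the NUP-17d cultures, lower in every NUP-17d culture. Of polymerase epsilon, which copies mainly the leading strand, the catalytic subunit Pole was lower at -0.11 (adjusted p = 0.0427) under TMM but lost the call in 5 of the 6 fits that left out 1 culture (-0.16 to -0.09), and Pole2 was not called (-0.12).

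Of the single-strand binding and Okazaki fragment genes, 4 of 5 fell under TMM, beside 18.9% of all tested genes. With totals only none fell and 2 rose, beside 68.7% of all tested genes that rose. Lig1, the ligase that joins the fragments, was at 147, 143 and 146 CPM in the DMSO cultures and 127, 125 and 125 CPM in the NUP-17d cultures. Rpa2, the middle subunit of the single-strand binding protein, was at 38.02, 38.6 and 38.7 CPM in the DMSO cultures and 33.1, 33.9 and 32.3 CPM in the NUP-17d cultures. The groups of both were apart, with log2 fold changes of -0.21 (SE 0.035, adjusted p = 3e-05) and -0.22 (SE 0.048, adjusted p = 0.00081).

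Fen1, the nuclease that trims the flaps between fragments, was at 100.2, 98.5 and 98.4 CPM in the DMSO cultures and 90.7, 84.9 and 92.5 CPM in the NUP-17d cultures. Rpa1, the large subunit that binds DNA, was at 165, 166 and 164 CPM in the DMSO cultures and 151, 148 and 156 CPM in the NUP-17d cultures. Neither overlapped, at -0.15 (SE 0.040, adjusted p = 0.00425) for Fen1 and -0.12 (SE 0.035, adjusted p = 0.0088) for Rpa1, and with totals only both were called higher, at 0.12 and 0.15. Rpa1 lost the call under TMM in the fit without NUP-17d culture 2, 1 of the 6 (-0.14 to -0.10). Rpa3, the small subunit, did not overlap but was not called (-0.13, adjusted p = 0.172). Fen1 shares 78.8% of its exon bases with the antisense gene Gm10143, which the files do not list.

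Across roles, levels per length spanned from 4.97 to 201 FPKM in the DMSO cultures. Pcna and Rrm2 (178.5 ± 3.08 FPKM) led, followed by Mcm7 (97.7 ± 1.29), Mcm6 (92.6 ± 1.13) and Rrm1 (87.1 ± 2.24). The subunits of the origin recognition complex ranged from 6.52 (Orc1) to 22.8 (Orc6) FPKM, and all 6 Mcm ring subunits lay above them, from 46.5 (Mcm4) to 97.7 FPKM. With NUP-17d Rrm2 was at 120.4 ± 1.55 FPKM and still the second highest, after Pcna at 177 ± 4.51.

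**Figure D4:**
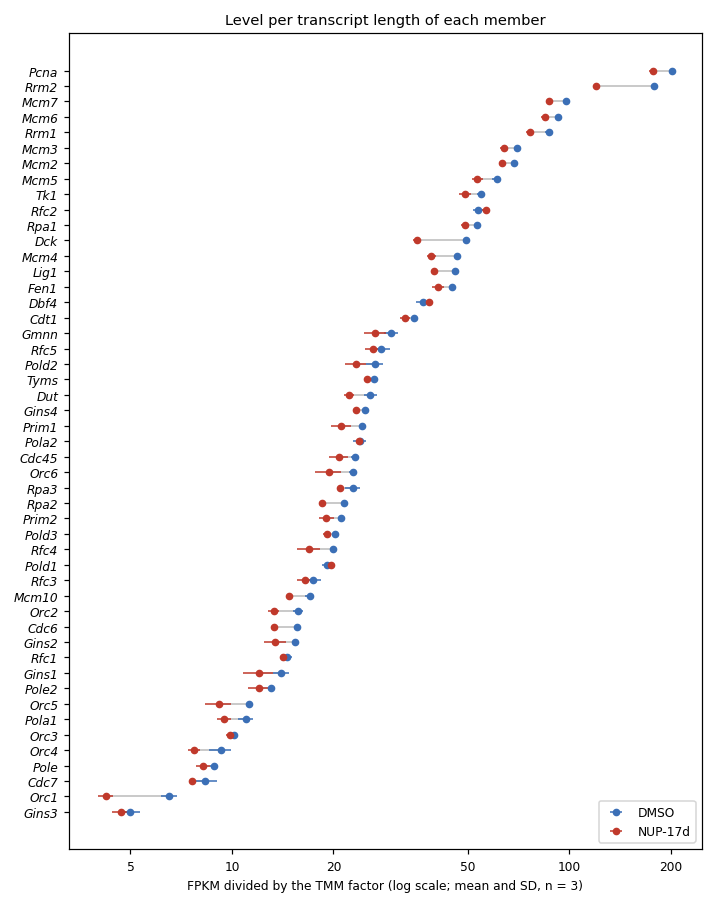
Level per transcript length of the 49 genes (FPKM divided by the TMM factor, log axis) in DMSO (blue) and NUP-17d (red), mean and SD of 3 cultures each, ordered by the DMSO level. The order runs from Pcna at 201 FPKM to Gins3 at 4.97 FPKM, and the widest gaps between the groups are those of Orc1, Rrm2 and Dck. Red lies left of blue in 46 rows under this scaling, and most of these gaps turn around with library totals only.

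Genes of the same pathway outside the 49 were read from lists of replication factors and nucleotide enzymes. Of 35 further replication factors, 18 (51.4%) were lower and 1 higher under TMM, beside 18.9% and 16.4% of all tested genes. Beside 5.34% and 68.7% of all tested genes, 1 factor was lower and 21 were higher with totals only. The 5 with the lowest p-values were Top1 (-0.46), the topoisomerase that relaxes DNA ahead of the fork, Uhrf1 (-0.25), which guides maintenance methylation, the histone chaperone Nasp (-0.27), the checkpoint mediator Clspn (-0.25) and Top2a (-0.19), all as log2 fold changes with TMM. Top1 was lower in both scalings, at -0.19 with totals only. The 1 that was higher, Pold4 (0.23), was named after its value was seen. The median of the list was -0.13, beside -0.16 for the 49.

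Of 37 further nucleotide enzymes, 13 (35.1%) were lower and 4 higher under TMM, beside 18.9% and 16.4% of all tested genes. With totals only none was lower and 26 were higher, beside 5.34% and 68.7% of all tested genes. Samhd1, which breaks down deoxynucleotides, was at -0.22. The nucleoside diphosphate kinase Nme1 (-0.25) and the GMP synthase Gmps (-0.20) also fell with TMM. Adssl1, an adenylosuccinate synthase, rose by 0.36, the lowest p of the list. The median was -0.075, beside 0.014 for all tested genes.

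Of 20 mitosis genes, 17 were lower with TMM and 0 with totals only, where 11 were higher, and those with the lowest p-values were Mki67 (-0.32), Cenpe (-0.28) and Tpx2 (-0.23). Their median log2 fold change of -0.17 lay close to the -0.16 of the 49. Of all tested genes, 18.9% were lower and 16.4% higher with TMM, and 5.34% lower and 68.7% higher with totals only. Of 15 E2F and retinoblastoma genes, 7 were lower and 0 higher with TMM, and 5 were lower and 8 higher with totals only. The lowest p-values were those of Tfdp2 (-0.77), E2f2 (-0.74) and Ccne1 (-0.55). The estimates for Tfdp2 and E2f2 lay below those of all 49 genes, and that for Ccne1 below all but Orc1 and Rrm2, with no test of these differences. Tfdp2 and E2f2 encode a dimer partner and an activator of the E2F family, and Ccne1 a cyclin of the G1/S border.

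**Figure D5:**
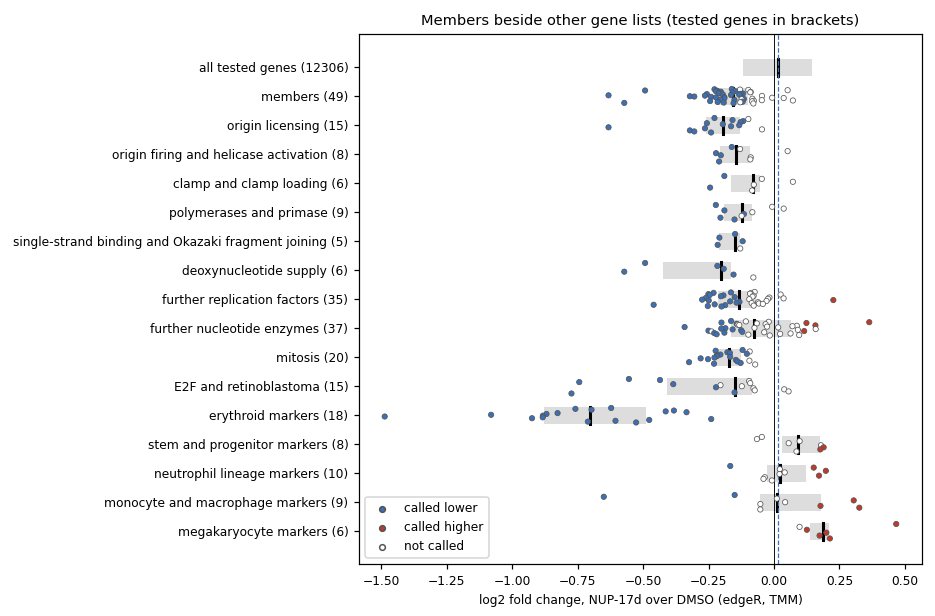
Log2 fold change of NUP-17d over DMSO (edgeR, TMM) for the 49 genes, their role groups and other gene lists, with points for genes, grey boxes from the lower to the upper quartile and black bars at the median. The 49 have a median of -0.16 and the erythroid markers one of -0.70, beside 0.014 for all tested genes. Medians of the replication, mitosis and E2F lists turn above 0 with library totals only, and that of the erythroid markers does not.

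The labels call the cells erythroblasts, and erythroid markers were detected together with markers of other lineages. For the counts of calls here, 18.9% of all tested genes were lower and 16.4% higher with TMM. With totals only these shares were 5.34% and 68.7%. All 18 erythroid markers fell with TMM and 16 with totals only (medians of -0.70 and -0.44). Their sum, mostly hemoglobin, was 221100 to 255300 CPM in the DMSO cultures and 122500 to 137000 CPM in the NUP-17d cultures. Without hemoglobin genes, all 12 markers fell with TMM and 10 with totals only (medians of -0.57 and -0.30). The sum of these 12 was 24740 to 26620 CPM in the DMSO cultures and 15350 to 16260 CPM in the NUP-17d cultures. Among them Klf1, an erythroid transcription factor, fell least, at -0.24, and with totals only it was at 0.03 and not called. Of 8 stem and progenitor markers tested, 2 were higher and 0 lower, with a sum of 467 to 472 CPM in the DMSO cultures and 487 to 507 CPM in the NUP-17d cultures. Megakaryocyte markers were higher in 5 of 6, with a sum of 428 to 467 CPM in the DMSO cultures and 495 to 515 CPM in the NUP-17d cultures. Neutrophil lineage markers were higher in 3 and lower in 1 of 10, with sums of 4000 to 4180 CPM in the DMSO cultures and 4099 to 4378 CPM in the NUP-17d cultures. Monocyte and macrophage markers were higher in 3 and lower in 2 of 9, with sums of 3381 to 3639 CPM in the DMSO cultures and 3705 to 4020 CPM in the NUP-17d cultures. Mast cell and basophil markers were higher in 1 and lower in 2 of 5, with sums of 208 to 225 CPM in the DMSO cultures and 186 to 192 CPM in the NUP-17d cultures. Lymphoid markers were lower in 2 of 5, at sums of at most 24.6 CPM. With totals only, the higher and lower calls were 8 and 0 for stem and progenitor, 6 and 0 for megakaryocyte, 9 and 0 for neutrophil, 7 and 0 for monocyte and macrophage, 2 and 0 for mast cell and basophil and 0 and 1 for lymphoid markers. That scaling called 68.7% of all tested genes higher. The markers Mcpt4 (mast cell) and Cd3g, Ighm (lymphoid) and Mecom (stem cell) were not tested. The part of cell composition in the falls of the 49 genes was not tested.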

How the data were processed

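RNA of 6 cultures, 3 with DMSO and 3 with NUP-17d, was read from 1 table per culture. The authors deposited expected counts (estimated reads per gene, not normalised, 27.8% to 28.5% of them not whole) and FPKM values, which the authors scaled by transcript length and library total. A gene not listed in a culture was taken as 0. Per the labels, libraries were made from poly(A) RNA with random primers for a DNBseq instrument, whereas the methods of the study name a stranded mRNA kit, and reads were placed on mm10. The aligner and counter are not given in the sources used here.

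Counts were rounded, kept by filterByExpr, scaled by TMM and tested with edgeR 4.0.16 (glmQLFit and glmQLFTest, R 4.3.3) on all 12306 kept genes, with p-values adjusted by Benjamini-Hochberg and read at 0.05. The biological coefficient of variation was 2.95%. Levels are FPKM divided by the TMM factor. Alternatives were DESeq2 1.42.0, totals only, RLE factors, hemoglobin genes removed, no filter, a minimum fold change of 1.2, the replicate number as a block, limma 3.58.1 on the log2 of FPKM with a pseudocount of 1 or 0.1 (mean FPKM of 1 or more, or no filter), and leaving out each culture. Fits were tested on simulated counts. Promoters and gene spans came from RefSeq (GRCm38.p6), exon overlaps from GENCODE.

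The members and lists were chosen by gene name, with earlier results of these data known. In each role, the 4 genes with the lowest p-values were given in every culture, with the members of the highest FPKM and of the largest change each way, and in the further lists the 5 or 3 with the lowest p-values. Other genes are given by call or range, or were named after their values were seen. Some genes that this rule names are not reported here.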

Additional observations from a re-analysis of the deposited data

How the results depend on the processing

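Results kept their direction and their side of the threshold in edgeR with RLE factors and with hemoglobin genes removed, where 33 members were lower and 0 higher in each. Without a filter on low counts 31 members were lower, with DESeq2 27, and with the replicate block 34, which changed no member's call but that of Cdt1 (adjusted p = 0.0495). No paired analysis was taken as the main one: same-numbered cultures deviated together with correlations of 0.0046 to 0.0657, which does not show that the numbers pair them. Of all genes that each fit tested, DESeq2 called 1809 lower (2327 with edgeR) and 1161 higher (2019 with edgeR). Of the further replication and nucleotide genes, it called 26 lower (31 with edgeR) and 1 higher (5 with edgeR).

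The scaling changed most. With library totals only, 657 of all tested genes were lower and 8458 higher, 3 members lower and 21 higher, and 1 of the 72 further genes lower and 47 higher, and the median of the members turned to 0.11. limma on log2(FPKM + 1) gave 599 and 7895 of all genes, 3 and 26 members, 1 and 47 further genes and a median of 0.11. With a pseudocount of 0.1 these were 600 and 7880, 3 and 26, 1 and 47, and 0.11, and with no filter on low values 655 and 7997, 3 and 22, 1 and 41, and 0.11. FPKM is itself scaled by the total, so limma differs from totals only by at most 0.063 for any member. With totals only the log2 fold changes that turned above 0 were 0.0031 for Orc2, 0.011 for Mcm4, 0.023 for Rfc4, 0.026 for Orc6, 0.040 for Cdc6, 0.045 for Gins1 and Pola1, 0.051 for Dut, 0.052 for Rpa2, 0.058 for Mcm10, 0.059 for Lig1, 0.063 for Prim1, 0.064 for Gins2, 0.072 for Mcm5, 0.075 for Rrm1, 0.077 for Pcna, 0.078 for Pold2, 0.10 for Mcm7, 0.11 for Gmnn, Cdc45 and Tk1, 0.12 for Prim2 and Fen1, 0.13 for Mcm6, 0.14 for Mcm3, Cdc7, Pole2 and Rpa3, 0.15 for Mcm2, Pole and Rpa1, 0.17 for Cdt1, 0.18 for Gins3, Gins4, Rfc5 and Pold3, 0.19 for Rfc3 and Tyms, 0.22 for Orc3 and Rfc1, 0.26 for Pola2. In the limma fits the same genes turned, and Orc4 also. With a pseudocount of 1, with or without the filter, those under 0.1 were 0.0063 for Orc4, 0.015 for Mcm4, 0.024 for Orc6, 0.025 for Rfc4, 0.027 for Orc2, 0.042 for Cdc6 and Gins1, 0.046 for Pola1, 0.053 for Rpa2, 0.056 for Dut, 0.060 for Mcm10, 0.062 for Lig1 and Prim1, 0.063 for Gins2, 0.075 for Mcm5, 0.077 for Pold2, 0.078 for Rrm1, 0.081 for Pcna, and with 0.1 they were 0.0071 for Orc4, 0.015 for Mcm4, 0.025 for Orc6, 0.026 for Rfc4, 0.029 for Orc2, 0.044 for Cdc6, 0.045 for Gins1, 0.050 for Pola1, 0.056 for Rpa2, 0.058 for Dut, 0.063 for Mcm10, 0.064 for Lig1, 0.065 for Prim1, 0.067 for Gins2, 0.076 for Mcm5, 0.079 for Rrm1, 0.080 for Pold2, 0.082 for Pcna. The others ran from 0.10 to 0.26, with Orc3 at 0.20, Rfc1 at 0.21 and Pola2 at 0.25 with a pseudocount of 1. Orc1, Rrm2 and Dck were called lower in all 17 settings run, the first included, with log2 fold changes from -0.68 to -0.30, -0.59 to -0.30 and -0.51 to -0.22.

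Against a minimum fold change of 1.2, 661 of all tested genes were lower and 275 higher, 3 members lower and 0 higher, and 1 further gene lower and 0 higher. Leaving out each culture in turn gave 26 members lower (without NUP-17d culture 2) to 33 and none higher, a member median of -0.19 to -0.14, 2035 to 2181 of all genes lower and 1642 to 1827 higher, and 25 to 30 further genes lower and 2 to 4 higher. Of the 33 calls, 25 held in all 6 of these fits. Without NUP-17d culture 2, Gmnn, Cdc45, Gins1, Gins2, Prim2, Pold2, Pole and Rpa1 lost theirs, and each of the other fits lost 1 to 5 of the calls. Pola2, not called, ran from -0.040 to 0.024, the latter without DMSO culture 1. The cause of these changes was not tested.

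With depth nearly equal across cultures, Gins3 and Gins1, at 10.6 to 16.1 CPM, have the largest standard errors (0.082 and 0.078). Neither spike-in RNA nor a count of cells entered these values, so they are relative.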
